A study of Mus musculus with 30 samples.

Results

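Liver RNA from 6 mice given aspirin with clopidogrel was set against liver RNA from 5 vehicle mice that had not developed hepatocellular carcinoma (HCC). These 11 mice were chosen by the titles of their arrays, AspClo and Veh_low, out of 30 mice in the series, and each is named here by that title and its animal number. The diet of all 11 was CD-HFD, high in fat and deficient in choline, which models steatohepatitis and HCC. The AspClo mice were given both drugs prophylactically, per the labels, and the Veh_low mice were given vehicle and had neither HCC nor fibrosis. The labels set the vehicle mice apart by this outcome and give no outcome for the drug-treated mice. They give no strain, sex, age, dose, duration, time of day or batch. RNA came from non-tumour liver, with 1 Affymetrix HT MG-430 PM array per mouse. The other groups were vehicle mice with HCC and fibrosis (Veh_high, 4), sulindac mice (Sulin, 10) and healthy mice on chow (Hlth, 5), and they entered the fit to estimate the spread between mice and to set levels beside those of the AspClo mice.

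Aspirin blocks the cyclooxygenases that make prostanoids, among them the thromboxane of platelets. Clopidogrel is a prodrug that liver enzymes convert into a blocker of P2Y12, the ADP receptor of platelets. The liver that metabolises both drugs has its own rhythms and differences: many mouse liver genes differ between females and males under the pattern of growth hormone secretion, clock genes rise and fall over the day, and fat is stored in droplets coated by perilipins and CIDE proteins.

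The drug-treated group was not uniform. Values below are log2 intensity, and a change is the AspClo mean minus the Veh_low mean on that scale. Xist, the RNA that silences 1 X chromosome in female cells, was at 10.95, 11.01, 11.08 and 11.21 in AspClo_58, AspClo_64, AspClo_63 and AspClo_61. It was at 4.80 and 4.56 in AspClo_60 and AspClo_62, against 4.55 to 4.80 in the Veh_low mice, and none of the 26 arrays other than those 4 exceeded 5.03. The Y-linked genes ran the other way. Eif2s3y, a Y-linked translation initiation factor gene, was at 4.14, 4.59, 5.17 and 5.21 in the same 4 mice and at 9.09 and 9.10 in AspClo_60 and AspClo_62, against 8.63 to 8.90 in the Veh_low mice. Kdm5d, a Y-linked histone demethylase gene, was at 4.43 to 4.95 in the 4 mice and at 6.42 and 6.11 in the other two, against 6.15 to 6.34 in the Veh_low mice. The 4 mice thus had the Xist and Y-linked levels usual in female tissue, while the other two and all 5 vehicle mice had those usual in male tissue. No vehicle mouse had high Xist, so for a gene that moved only in those 4 mice, drug and sex cannot be told apart. The labels give no sex, and whether samples were exchanged was not tested, so the AspClo label of those 4 arrays is uncertain. Of the genes called with all 6 mice, only A2ml1 also passed without the 4. Changes in the 4 high-Xist mice and in the 2 low-Xist mice are therefore given beside those in all 6.

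**Figure D1:**
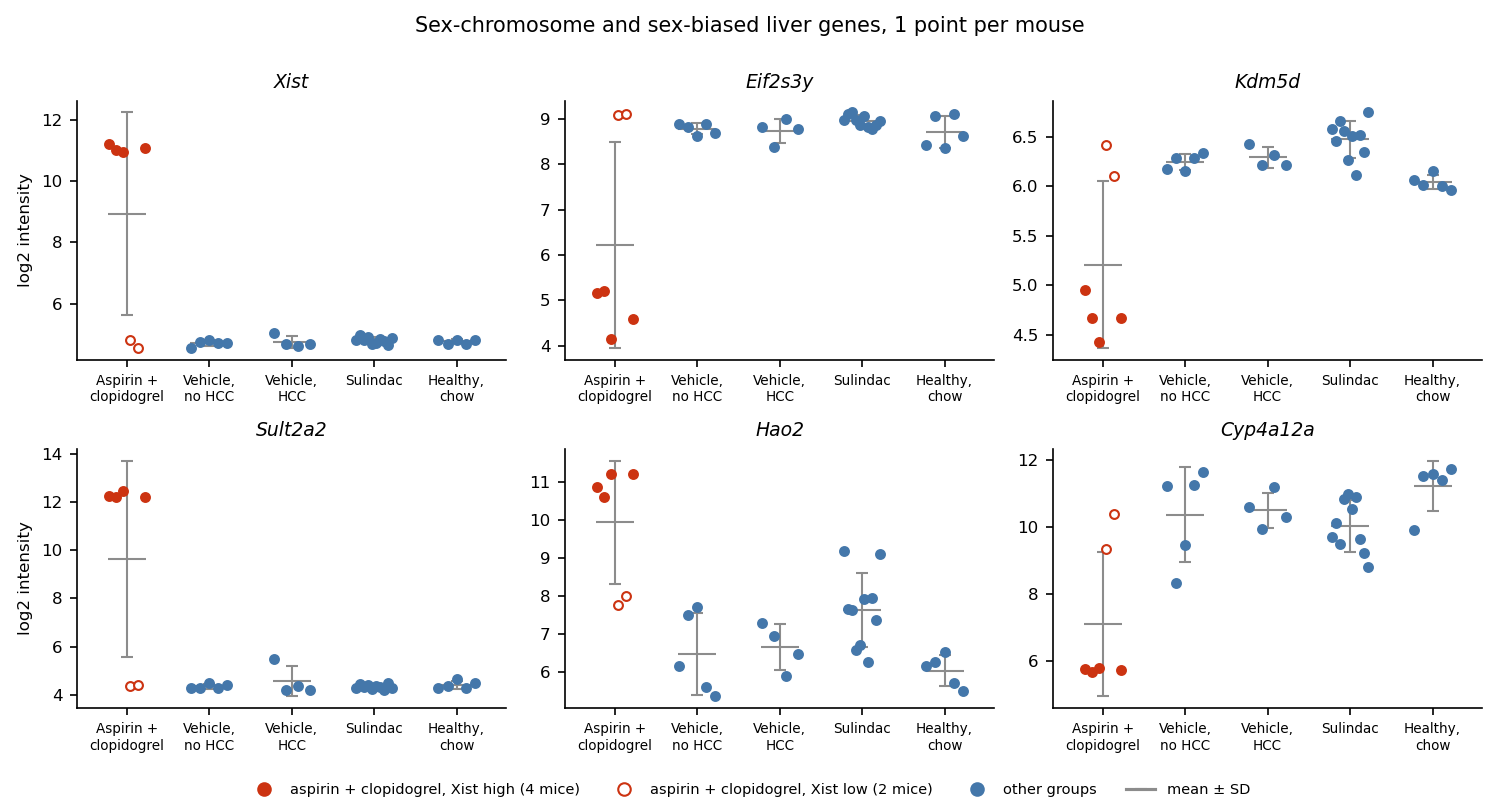
Log2 intensity of Xist, Eif2s3y and Kdm5d (sex-chromosome genes) and of Sult2a2, Hao2 and Cyp4a12a (liver genes) in 5 groups, 1 point per mouse, with mean and SD. Filled red points are the 4 AspClo mice with high Xist, and open red points are AspClo_60 and AspClo_62, which lie with the vehicle mice for Xist, Eif2s3y, Kdm5d and Sult2a2.

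With all 6 drug-treated mice, 224 of 17097 genes (1.31%) passed an adjusted p of 0.05 in limma's moderated test over all genes. Of these, 96 were higher (0.562% of all genes) and 128 lower (0.749%) in the AspClo mice. An unadjusted p under 0.05 was reached by 2273 genes (13.3%). In 106 of the 224 genes (47.3%) all 6 AspClo mice lay outside the range of the 5 Veh_low mice, on the side of the change, which held for 327 of all genes (1.91%). The 4 high-Xist mice lay outside it in 193 of the 224, against 8.46% of all genes, and the 2 low-Xist mice in 124 of them (55.4%), against 12.8% of all genes. The 224 were called on these same values, so shares above those of all genes are built in and lend the calls no support. The calls included 8 of 597 genes on chromosome X (1.34%) and 3 of 12 on chromosome Y.

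Without the 4 high-Xist mice, AspClo_60 and AspClo_62 alone were set against the 5 vehicle mice, and 6 genes passed (0.0351%), 4 higher and 2 lower, with 1086 genes at an unadjusted p under 0.05. The 2 mice are among the 6 and share the vehicle mice, so part of the likeness between their changes and those of the 224 genes is built in. The change in the 2 mice was a median 0.607 of the change in all 6. It was at least 80% of it for 75 genes and under 20% or opposite for 25 genes. Without the 2 low-Xist mice, 823 genes passed. When only the 11 compared arrays entered the fit, 44 genes passed (0.257%), 12 higher and 32 lower, with 2180 at an unadjusted p under 0.05. Of these 44 genes, 33 were among the 224, and this fit kept 6 of 50 named called genes. These 50 were named by the rule, except Kdm5d and Uty, a Y-linked gene, which were named after their values were seen. Other genes picked after their values were seen are not among the 50. Of those 50, 21 passed in each of 11 fits that left out 1 mouse, and 18 were lost in 6 or more of them.

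**Figure D2:**
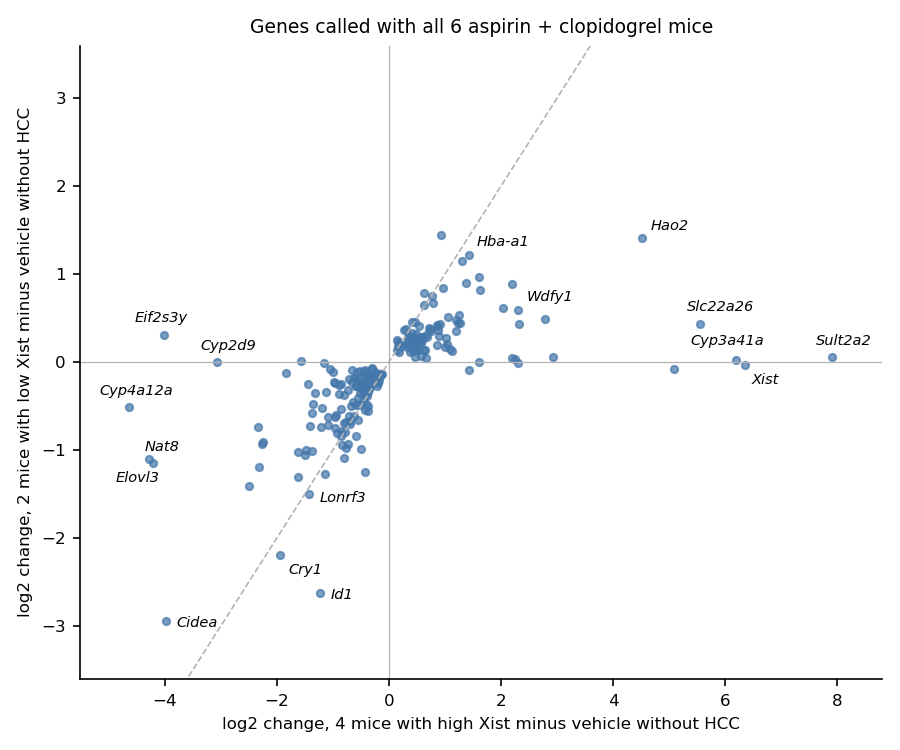
Each point is 1 of the 224 called genes, with its log2 change in the 4 high-Xist mice on the horizontal axis and in the 2 low-Xist mice on the vertical axis, both minus the Veh_low mean. The dashed line marks equal changes: Cry1, Lonrf3 and Hba-a1 lie near it, while Sult2a2, Xist, Cyp3a41a, Cyp2d9 and Eif2s3y lie near the horizontal line of no change in the 2 mice.

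Genes that mouse liver expresses at different levels in females and males had large changes in the 4 high-Xist mice. Of 17 measured female-biased liver genes, 7 rose and none fell. Their median change was 2.05 with all 6 mice, 2.81 in the 4 high-Xist mice and 0.16 in the 2 low-Xist mice, against -0.0013, 0.0002 and -0.0084 over all genes. Of 16 male-biased genes, 4 fell and none rose, with medians of -0.54, -0.84 and 0.12 in the same order. Over all genes 0.562% rose and 0.749% fell. Without the 4 mice, no member of either list passed. Only 6 of all 17097 genes (0.0351%) did so, and lists of this size would thus hold none at that share.

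Sult2a2, a sulfotransferase gene of steroid and bile acid conjugation that is in neither list, had the largest change of any named gene. It was at 12.20 to 12.44 in the 4 high-Xist mice and at 4.39 and 4.43 in AspClo_60 and AspClo_62, against 4.27 to 4.50 in the Veh_low mice. Its change was 5.30 (SE 1.06, adjusted p = 0.0108) with all 6 mice and 0.06 (adjusted p = 0.989) without the 4, and its adjusted p was 0.211 with only the 11 arrays in the fit. Cyp3a41a, a cytochrome P450 gene, was at 11.82 to 12.02 in the 4 and at 5.77 and 5.79 in the other two, against 5.62 to 5.88 in the Veh_low mice. The 2 low-Xist mice again lay inside the vehicle range. Its relatives Cyp3a16 and Cyp3a44 changed by 3.37 (adjusted p = 0.0143) and 0.93 (adjusted p = 0.0358), and by -0.08 and -0.09 without the 4. Probes for these P450 genes, like those for the sulfotransferases, may bind near-identical family members, so which member was measured is uncertain. Slc22a26, an organic anion transporter gene, changed by 3.84 (SE 0.705, adjusted p = 0.00527), and by 0.44 (adjusted p = 0.832) without the 4. Cux2, a transcription factor that represses male-biased genes in female liver, changed by 1.48 (SE 0.36, adjusted p = 0.0368), and by 0.05 without the 4. Prom1, the gene of the progenitor marker CD133, behaved alike, at 6.82 to 8.27 in the 4 mice and at 4.68 and 4.60 in the other two, against 4.47 to 4.76 in the Veh_low mice, a change of 1.98 (adjusted p = 0.0355).

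Some sex-biased genes, and Nat8, which is in neither list, also stood apart in the 2 low-Xist mice. Hao2, which encodes a peroxisomal hydroxyacid oxidase, was at 10.62 to 11.24 in the 4 mice and at 7.76 and 8.0 in AspClo_60 and AspClo_62, against 5.37 to 7.73 in the Veh_low mice. All 6 AspClo mice exceeded the highest vehicle mouse, the 2 low-Xist mice by a narrow margin. The change was 3.48 (SE 0.62, adjusted p = 0.00375) and 1.41 (adjusted p = 0.784) without the 4. Elovl3, a male-biased fatty acid elongase gene, was at 6.35 to 8.12 in the 4 mice and at 10.71 and 10.67 in the other two, against 11.02 to 12.46 in the Veh_low mice. It fell by 3.22 (SE 0.57, adjusted p = 0.00375), with all 6 AspClo mice below the vehicle range and a change of -1.10 (adjusted p = 0.784) without the 4. Nat8, which encodes the acetyltransferase of the last step of mercapturate formation, was at 4.77 to 5.23 in the 4 mice and at 7.87 and 8.28 in the other two, against 9.05 to 9.60 in the Veh_low mice. It fell by 3.19 (SE 0.53, adjusted p = 0.00269), and its change without the 4 was -1.15 (adjusted p = 0.737). The male-biased P450 genes Cyp2d9 and Cyp4a12a fell by 2.05 (adjusted p = 0.0218) and 3.26 (adjusted p = 0.0236), with changes of -0.0015 and -0.51 without the 4. For both of these P450 genes the 2 low-Xist mice lay inside the vehicle range.

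Veh_low mice differed among themselves in the same gene families. Hsd3b5, a male-biased steroid dehydrogenase gene, was at 11.49 and 11.11 in Veh_low_794 and Veh_low_1819 and at 4.33 to 4.69 in the other 3 vehicle mice, while Cyp2b9, a female-biased P450 gene, was at 4.14 and 4.69 in the first 2 and at 9.78 to 10.80 in the other 3. Without Veh_low_794 and Veh_low_1819 the median change of the female-biased list was 1.23 and that of the male-biased list -0.06. Leaving out these 2 vehicle mice thus took the male-biased median to near 0. Hsd3b5, like Cyp3a44, Arntl and Nr1d2, was named after its values were seen.

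The clock genes Cry1 and Lonrf3 had like changes in drug-treated mice with high and with low Xist. Of 26 measured clock and clock-output genes, 3 fell, none rose and 11 had an unadjusted p under 0.05. Over all genes 0.749% fell and 13.3% had such a p. The median change of the list was -0.02, and 12 of the 26 had a change above 0. Cry1, a repressor of the core clock, was at 6.23, 6.11, 5.58, 5.81, 6.25 and 7.19 in AspClo_61, AspClo_64, AspClo_58, AspClo_60, AspClo_62 and AspClo_63, against 8.50, 8.69, 8.99, 7.82 and 7.12 in Veh_low_1810, Veh_low_1825, Veh_low_2091, Veh_low_794 and Veh_low_1819. Other values per mouse below are given in the same order of mice. The groups overlapped only through AspClo_63 and Veh_low_1819. Cry1 fell by 2.03 (SE 0.34, adjusted p = 0.00304; 0.048 with only the 11 arrays in the fit), with changes of -1.95 in the 4 high-Xist mice and -2.19 (adjusted p = 0.117) in the 2 low-Xist mice. Lonrf3, an X-linked ubiquitin ligase gene that cycles in mouse liver, was at 5.66, 5.31, 5.79, 5.66, 5.55 and 5.96 in the AspClo mice, against 7.72, 7.33, 7.19, 6.53 and 6.74 in the Veh_low mice. The groups did not overlap, and Lonrf3 fell by 1.45 (SE 0.20, adjusted p = 0.000679), with changes of -1.42 in the 4 and -1.50 (adjusted p = 0.0749) in the 2. Rora, a nuclear receptor gene that activates Arntl, fell by 0.39 (SE 0.09, adjusted p = 0.0318), with a change of -0.38 in the 2, but only 3 of its 5 probe sets shared that direction.

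Both Cry1 and Lonrf3 have the E-box letters CACGTG, the sequence bound by the CLOCK and ARNTL pair, just before their start sites. Their promoters are shown because these 2 clock genes fell most among the 3 that passed. CACGTG, which reads the same on both strands, was searched in the 250 bases before each start site, and 7 of 22 measured clock genes with such a window (31.8%) held it, against 6.86% of 27025 genes, counting a gene once if any of its windows did. Of all 32851 windows, 6.02% held it. A match describes the letters and shows no binding. The list was chosen for its clock genes, so its share describes the list and not the changes seen here. Bhlhe41, Ciart, Per1, Tef and Tspan4 also held a match and did not pass. The 60 bases around the matches of Cry1 and Lonrf3, from RefSeq (GRCm38.p6), read 5′ to 3′ on the strand of the gene, with the E-box in capitals. The Cry1 stretch is chr10:85185082-85185141 on the minus strand, and its E-box begins 60 bases before the start site. The Lonrf3 stretch is chrX:36328337-36328396 on the plus strand, and its E-box begins 45 bases before the start site.
Cry1: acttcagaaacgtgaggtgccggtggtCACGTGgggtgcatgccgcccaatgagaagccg
Lonrf3: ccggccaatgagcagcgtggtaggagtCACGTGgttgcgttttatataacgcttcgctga

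Other clock genes had large changes that did not pass the adjusted threshold. Dbp, a transcription factor of the clock output, was at 7.82, 7.70, 10.20, 7.82, 8.98 and 5.30 in the AspClo mice, against 5.00, 5.20, 4.90, 4.40 and 4.88 in the Veh_low mice. Every AspClo mouse exceeded every vehicle mouse, with AspClo_63 the lowest, and the change was 3.09 (SE 0.95, adjusted p = 0.104). Arntl, the activator of the core clock, was at 5.46, 5.04, 4.51, 4.90, 4.95 and 7.11 in the AspClo mice, against 6.90, 7.22, 6.90, 7.58 and 7.16 in the Veh_low mice. Only AspClo_63 reached the vehicle range, and the change was -1.83 (adjusted p = 0.0581). Only 1 of the 2 probe sets of Arntl had this direction, and the other was at 0.0083. Nr1d2, which encodes the repressor REV-ERB beta, lay at 9.86 to 10.75 in the AspClo mice, against 7.93 to 9.64 in the Veh_low mice, with a change of 1.40 (adjusted p = 0.0515). AspClo_63 thus had the highest Cry1 and Arntl and the lowest Dbp of the drug-treated mice. The time of day at collection is not given by the labels, and its part in these changes was not tested.

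**Figure D3:**
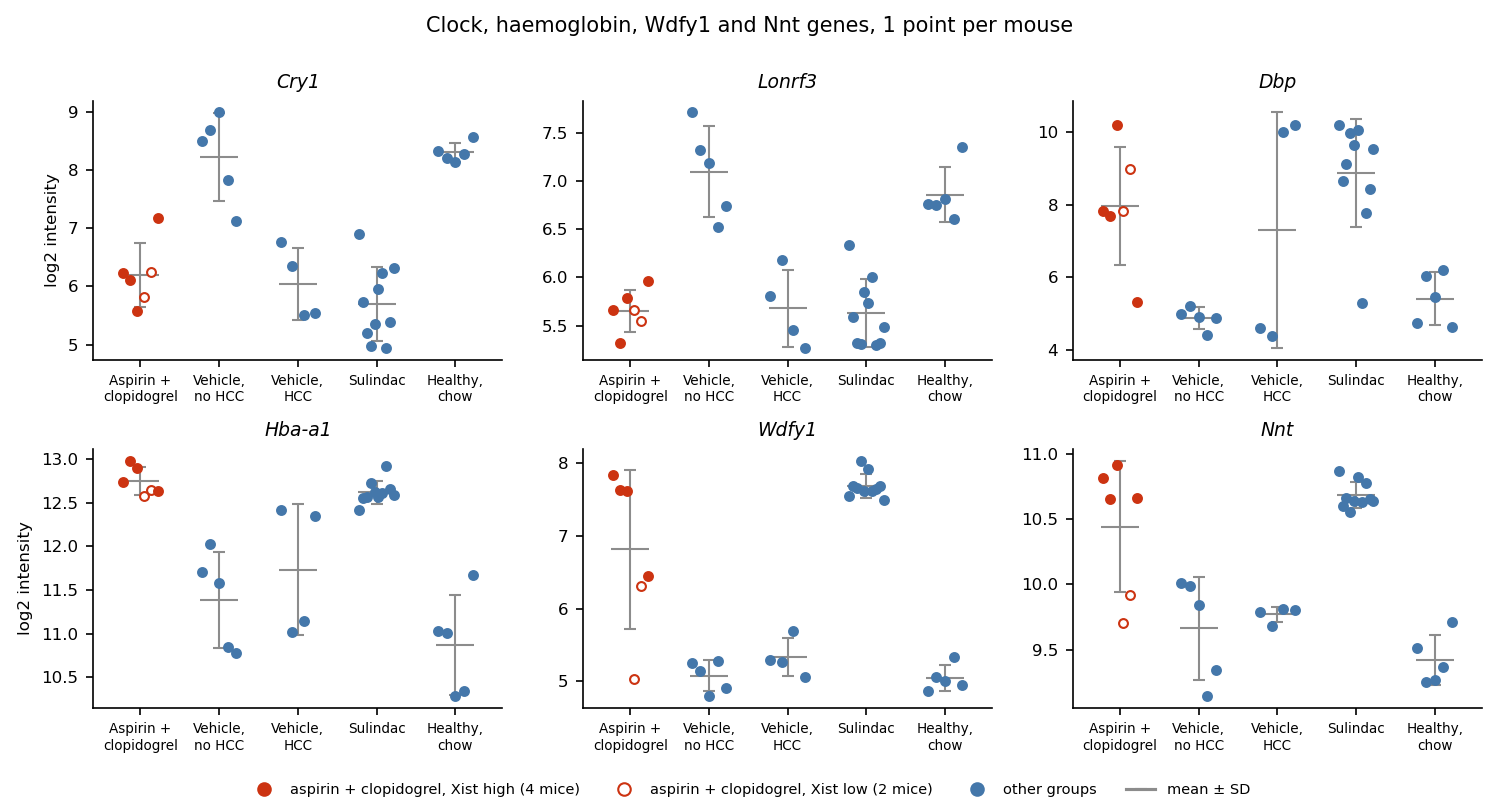
Log2 intensity of the clock genes Cry1, Lonrf3 and Dbp, the haemoglobin gene Hba-a1, and Wdfy1 and Nnt in 5 groups, 1 point per mouse, with mean and SD; filled and open red points are the AspClo mice with high and low Xist. Cry1 and Lonrf3 are lower and Hba-a1 higher in both kinds of AspClo mice than in the Veh_low mice, while for Nnt only the filled points lie above the vehicle range.

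In the other groups Cry1 averaged 6.04 in Veh_high, 5.70 in Sulin and 8.31 in Hlth mice, and Lonrf3 averaged 5.68, 5.63 and 6.86 in the same order. In limma's contrasts of AspClo with Veh_high and with Sulin neither gene passed (adjusted p between 0.584 and 0.98), while both were lower in AspClo than in Hlth mice (adjusted p = 0.000653 for Cry1 and 0.00108 for Lonrf3). A contrast that did not pass does not show equal levels. Over all genes, 157 differed between AspClo and Veh_high mice (0.918%), 150 between AspClo and Sulin mice (0.877%) and 473 between AspClo and Hlth mice (2.77%).

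Several genes of fat storage were lower under aspirin with clopidogrel. Of 21 measured lipid droplet genes, 3 fell, none rose, and 17 had a change below 0, with a median change of -0.19. Over all genes 0.749% fell, and 8449 of 17097 had a change above 0. The median of the list was -0.25 in the 4 high-Xist mice and -0.10 in the 2 low-Xist mice. Fitm1, which encodes a membrane protein that promotes droplet formation, was at 7.74, 8.28, 7.43, 8.44, 9.67 and 7.40 in the AspClo mice, against 10.13, 10.00, 9.90, 10.06 and 9.81 in the Veh_low mice. The groups did not overlap, although AspClo_62 lay close to the vehicle mice. Fitm1 fell by 1.82 (SE 0.25, adjusted p = 0.000479), with changes of -2.27 in the 4 and -0.93 (adjusted p = 0.182) in the 2, and an adjusted p of 0.072 with only the 11 arrays in the fit. Plin5, the perilipin that ties droplets to mitochondria, was at 8.21, 8.70, 7.26, 8.58, 9.03 and 8.63 in the AspClo mice, against 10.19, 10.05, 10.35, 9.14 and 9.37 in the Veh_low mice. It fell by 1.42 (SE 0.27, adjusted p = 0.00701), again without overlap, and its change in the 2 low-Xist mice was -1.01 (adjusted p = 0.477). With only the 11 arrays in the fit its adjusted p was 0.101.

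Cidea, which drives the fusion of droplets, had the largest fall of all 224 called genes. It was at 4.84, 6.32, 5.18, 4.86, 7.98 and 5.20 in the AspClo mice, against 10.55, 9.92, 10.11, 9.46 and 6.76 in the Veh_low mice. AspClo_62 and Veh_low_1819 crossed over. Cidea fell by 3.63 (SE 0.80, adjusted p = 0.0204), with changes of -3.98 in the 4 and -2.94 (adjusted p = 0.675) in the 2. Pparg, the nuclear receptor gene that promotes fat storage in steatotic liver, was at 6.25, 6.66, 6.27, 6.23, 6.44 and 6.14 in the AspClo mice, against 7.26, 7.72, 6.85, 7.42 and 6.64 in the Veh_low mice. It fell by 0.85 (SE 0.20, adjusted p = 0.0318), with changes of -0.85 in the 4 and -0.84 (adjusted p = 0.554) in the 2. Neither call held without AspClo_61, AspClo_58, Veh_low_1810 or Veh_low_1825, that of Cidea was also lost without Veh_low_2091, and that of Pparg without AspClo_63 or Veh_low_794. With only the 11 arrays in the fit, the adjusted p was 0.0843 for Cidea and 0.0892 for Pparg. Veh_low_794 also stood apart in markers of adipose tissue, where fat-storage genes are expressed too, with a mean of 7.12 over 6 genes against 6.01 to 6.10 in the AspClo mice and 6.00 to 6.07 in the other Veh_low mice. Without it the changes were -3.61 (adjusted p = 0.0442) for Cidea and -0.79 (adjusted p = 0.0685) for Pparg. Among 16 genes of the Pparg and lipid uptake list, Pparg and Cidea fell and Vldlr, the receptor for very-low-density lipoprotein, rose by 0.40 (adjusted p = 0.036), with a change of 0.23 in the 2, and was lost in 8 of the 11 fits that left out 1 mouse. Plin4 and Plin2, further droplet coat genes picked after their values were seen, had changes of -1.58 (adjusted p = 0.124) and -0.24 (adjusted p = 0.326).

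**Figure D4:**
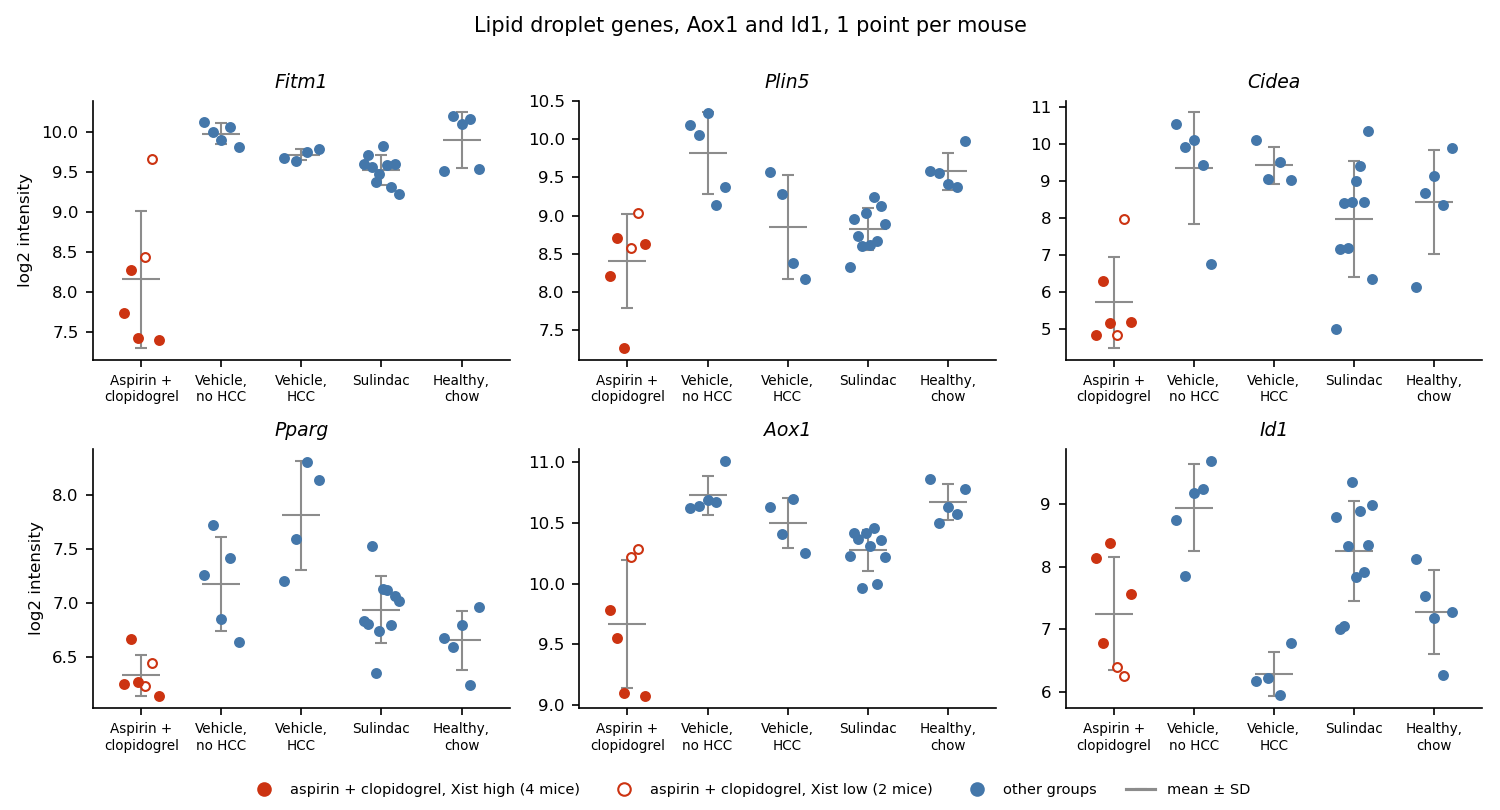
Log2 intensity of Fitm1, Plin5, Cidea, Pparg, Aox1 and Id1 in 5 groups, 1 point per mouse, with mean and SD; filled and open red points are the AspClo mice with high and low Xist. All 6 AspClo points lie below the Veh_low points for Fitm1, Plin5 and Aox1, and the 2 open points are the lowest AspClo values for Id1.

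For synthesis of fat and of cholesterol, the 2 kinds of drug-treated mice had medians of opposite sign. None of 23 genes of de novo lipogenesis passed, with a median change of 0.06 that was 0.52 in the 4 high-Xist mice and -0.47 in the 2 low-Xist mice. The mean log2 intensity of this list was 9.18 and 9.27 in AspClo_60 and AspClo_62, below the Veh_low range of 9.31 to 10.10. Without Veh_low_794 and Veh_low_1819, its median change over all AspClo mice was -0.11. Of 19 cholesterol genes, all 19 had a change above 0 (median 0.34), against 8449 of all 17097 genes. The median was 0.65 in the 4 but -0.33 in the 2. The mean log2 intensity of the cholesterol list was 9.02 and 8.69 in Veh_low_794 and Veh_low_1819. It was 7.82 to 8.30 in the other Veh_low mice. AspClo_60 and AspClo_62 were at 8.31 and 7.85, near the latter, so the sign in the 2 depended on Veh_low_794 and Veh_low_1819. Without these 2 vehicle mice, the median change of the cholesterol list over all AspClo mice was 0.64. Stard4, a cholesterol transfer protein gene, was the 1 member that rose, by 0.71 (SE 0.18, adjusted p = 0.0488), with a change of 0.42 in the 2, and was lost in 7 of the 11 fits that left out 1 mouse. Of 31 PPAR-alpha targets, 2 fell: Pex11a, a gene of peroxisome division, by 0.97 (adjusted p = 0.0108), and Cyp4a12a, described above with the male-biased genes. Among choline and methyl-group genes, Chpt1, the choline phosphotransferase gene, fell by 0.72 (adjusted p = 0.0348), with a change of -0.07 without the 4.

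Some genes of detoxification and glutathione were lower. Of 35 measured NRF2 targets and glutathione genes, 3 fell, none rose and 30 had a change below 0. Over all genes 0.749% fell, and 8449 of 17097 had a change above 0. The median change of the list was -0.23, with -0.21 in the 4 high-Xist mice and -0.27 in the 2 low-Xist mice. The summed intensity of the list was 49416 to 59474 in AspClo mice and 62584 to 70790 in Veh_low mice, without overlap. The brightest members weigh most in such a sum. The mean log2 intensity of the list was 9.26 to 9.71 in AspClo mice and 9.57 to 9.93 in Veh_low mice. On that scale the groups overlapped through AspClo_61. Aox1, an aldehyde oxidase gene, was at 9.78, 9.55, 9.10, 10.22, 10.28 and 9.08 in the AspClo mice, against 10.62, 10.64, 10.68, 10.67 and 11.01 in the Veh_low mice. It fell by 1.05 (SE 0.16, adjusted p = 0.00145) without overlap, with a change of -0.47 (adjusted p = 0.37) in the 2 and an adjusted p of 0.0933 with only the 11 arrays in the fit. Gstp1, a glutathione transferase gene that is also male-biased, fell by 0.51 (adjusted p = 0.00375), and Ephx1, the microsomal epoxide hydrolase gene, by 0.70 (adjusted p = 0.0301). In the 2 low-Xist mice these 2 genes had changes of -0.22 and -0.11. The glutathione transferase genes Gsta2 and Gsta4, picked after their values were seen, did not pass and had changes of -1.47 (adjusted p = 0.126) and -0.56 (adjusted p = 0.0955), and of -1.24 and -0.49 in the 2.

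Haemoglobin transcripts were higher in all 6 drug-treated mice. Hba-a1, an alpha-globin gene, was at 12.74, 12.98, 12.90, 12.57, 12.65 and 12.64 in the AspClo mice, against 11.71, 12.03, 11.58, 10.85 and 10.77 in the Veh_low mice. It rose by 1.36 (SE 0.25, adjusted p = 0.00472), with changes of 1.43 in the 4 and 1.22 (adjusted p = 0.395) in the 2, and all 3 of its probe sets passed in that direction. Hbb-b2, a beta-globin gene, rose by 1.26 (SE 0.26, adjusted p = 0.0144), again without overlap, although the adjusted p was 0.0501 without Veh_low_794. Of its 3 probe sets, 2 passed in that direction, and the smallest change was 0.10. Globin genes are near copies of each other, so the exact member is uncertain. Further erythroid genes went the other way. Slc25a37, the mitochondrial iron carrier gene, fell by 0.88 (SE 0.14, adjusted p = 0.00223), with a change of -0.80 in the 2. Alas2, the erythroid haem synthesis gene, was picked after its values were seen. It fell by 1.26 (adjusted p = 0.0468), with a change of -0.12 in the 2. Of 16 measured haemoglobin and erythroid genes, 2 rose and 2 fell, and the median change was 0.03. Over all genes 0.562% rose and 0.749% fell. The summed intensity of the list was 14123 to 17600 in AspClo mice and 6839 to 12158 in Veh_low mice. As for the NRF2 list, the brightest members weigh most in this sum. The mean log2 intensity of the list was 6.76 to 7.01 in AspClo mice and 6.67 to 6.99 in Veh_low mice, so the groups overlapped on that scale. In bulk liver, the number of cells of a type and the RNA per cell cannot be told apart, here for blood cells and below for immune cells. Hba-a1 averaged 11.73 in Veh_high, 12.62 in Sulin and 10.87 in Hlth mice, and AspClo mice exceeded Hlth mice (adjusted p = 8.62e-05).

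Wdfy1 and Nnt varied within the drug-treated group. Wdfy1, an endosomal adaptor gene of toll-like receptor signalling, was at 7.85, 7.63 and 7.62 in AspClo_61, AspClo_64 and AspClo_58, at 6.45 and 6.32 in AspClo_63 and AspClo_62, and at 5.04 in AspClo_60, against 4.80 to 5.28 in the Veh_low mice. The drug-treated mice thus spread from the vehicle range to well above it, and AspClo_62 and AspClo_63 had like Wdfy1 levels with opposite Xist levels. It rose by 1.74 (SE 0.30, adjusted p = 0.00347), with a change of 0.60 (adjusted p = 0.619) without the 4 and an adjusted p of 0.144 with only the 11 arrays in the fit. Nnt, the mitochondrial transhydrogenase gene that is partly deleted in the C57BL/6J strain, was at 10.65 to 10.92 in the 4 high-Xist mice and at 9.70 and 9.92 in the other two, against 9.14 to 10.01 in the Veh_low mice. Its change was 0.78 (SE 0.17, adjusted p = 0.0204) and 0.15 (adjusted p = 0.966) without the 4. Entpd4, a Golgi nucleotidase gene, fell by 0.68 (SE 0.13, adjusted p = 0.00677), with changes of -0.71 in the 4 and -0.62 in the 2. Each subset was split: Entpd4 was at 5.93 to 6.05 in AspClo_58, AspClo_60, AspClo_61 and AspClo_64. In AspClo_62 and AspClo_63 it was at 6.64 and 6.72, inside the Veh_low range of 6.63 to 7.07. Only 1 of its 2 probe sets passed, and the other changed by -0.04. In Sulin mice Wdfy1 averaged 7.69 and Nnt 10.68, near the upper AspClo values. The labels give no strain, and its part in these levels was not tested.

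A smaller set of genes passed in both fits. Of the 33 genes called both with all 30 arrays and with only the 11, 27 were lower and 6 higher, and in 32 of them all 6 AspClo mice lay outside the vehicle range. Their change in the 2 low-Xist mice was between 0.469 of that in the 4 and more than all of it, with a median of 0.733, and reached 80% of it in 14. Passing in both fits favours genes that move alike in all 6 mice, so this likeness is in part built in. Ncald, the neuronal calcium sensor gene neurocalcin delta, had the smallest adjusted p of all genes. It was at 7.95, 7.66, 7.38, 6.95, 6.80 and 7.74 in the AspClo mice, against 5.75, 6.04, 6.10, 6.08 and 6.27 in the Veh_low mice, and rose by 1.37 (SE 0.17, adjusted p = 0.000187), with changes of 1.64 in the 4 and 0.83 (adjusted p = 0.135) in the 2. The lowest AspClo mouse exceeded the highest vehicle mouse, and both probe sets of Ncald passed.

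Of the 33, Nap1l1, Ttc7b, Mrtfb and Hdac5 are given as examples of like changes in both kinds of drug-treated mice and, like Ncald, were picked after their values were seen. Nap1l1, a histone chaperone gene, averaged 9.04 ± 0.15 (SD, n = 6) in AspClo mice and 9.73 ± 0.17 (n = 5) in Veh_low mice, and fell by 0.69 (adjusted p = 0.00108), with changes of -0.68 in the 4 and -0.71 (adjusted p = 0.117) in the 2. Ttc7b, a scaffold of the kinase complex that makes plasma membrane phosphoinositide, averaged 6.11 ± 0.13 (n = 6) in AspClo mice and 6.92 ± 0.14 (n = 5) in Veh_low mice, a change of -0.81 (adjusted p = 0.00629; 0.00788 with only the 11 arrays). Mrtfb, the serum response factor coactivator gene, fell by 0.83 (adjusted p = 0.00749), and Hdac5, a class IIa histone deacetylase gene, by 0.58 (adjusted p = 0.0226), with changes of -0.97 and -0.66 in the 2. Skil, the SMAD repressor SnoN, fell by 0.79 (SE 0.17, adjusted p = 0.0184), with changes of -0.72 in the 4 and -0.93 in the 2, and was the 1 gene of 21 in the TGF-beta list to pass. Nat8f5, an N-acetyltransferase gene, was at 5.50, 5.42, 5.57, 6.06, 6.93 and 5.13 in the AspClo mice, against 8.29, 8.04, 7.66, 8.22 and 7.31 in the Veh_low mice. It fell by 2.13 (SE 0.41, adjusted p = 0.00728) without overlap, though by less in the 2 low-Xist mice, with changes of -2.50 in the 4 and -1.41 in the 2.

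Id1 and A2ml1 had larger changes in the low-Xist mice. Id1, an inhibitor of DNA binding and a target of BMP signalling, was at 8.13, 6.78, 8.38 and 7.56 in AspClo_61, AspClo_64, AspClo_58 and AspClo_63 and at 6.40 and 6.25 in AspClo_60 and AspClo_62, against 8.75, 7.86, 9.18, 9.24 and 9.69 in the Veh_low mice. It fell by 1.69 (SE 0.43, adjusted p = 0.0476), with changes of -1.23 in the 4 and -2.62 (adjusted p = 0.107) in the 2, and was the 1 member of 19 in the BMP-SMAD list to pass. The call held without AspClo_58 or Veh_low_1825 and was lost without any other single mouse. A2ml1, an alpha-2-macroglobulin-like protease inhibitor gene, was at 8.60, 8.76, 8.86 and 8.71 in the 4 and at 8.20 and 7.64 in the 2, against 9.01 to 9.36 in the Veh_low mice. It fell by 0.70 (SE 0.17, adjusted p = 0.0419), and by 1.24 (SE 0.20, adjusted p = 0.0155) without the 4, and was the 1 gene of the 224 (0.446%) that also passed without them. The other genes that passed without the 4 were Isoc1, which fell by 0.91 (adjusted p = 0.00014), and Slc26a4, Banp, Anks1b and Ddit3, which rose. Slc26a4, Banp and Anks1b lay between 4.26 and 5.16 in all AspClo and Veh_low mice. These levels are near the array medians (4.59 to 4.62) and so close to background. With all 6 mice, only 3 of the 6 probe sets of Anks1b shared its direction. Ddit3, the stress transcription factor CHOP, was at 7.20 and 8.61 in AspClo_60 and AspClo_62 and at 5.62 to 5.99 in the 4 high-Xist mice, against 5.99 to 6.38 in the Veh_low mice, with a change of 1.76 (SE 0.32, adjusted p = 0.0375) without the 4. With all 6 mice the call of A2ml1 held without AspClo_58 or AspClo_62 and was lost without any other single mouse. These genes, other than Id1, were named after their values were seen.

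No gene passed among the measured targets Ptgs2 and P2ry12 or in the platelet, prostanoid and drug metabolism lists, which do not hold the Cyp3a genes named above. Ptgs2, the inducible cyclooxygenase gene, was at 4.23 to 4.37 in the AspClo mice, against 4.30 to 4.43 in the Veh_low mice, with a change of -0.07 (SE 0.04, adjusted p = 0.468). P2ry12 was at 4.40 to 4.87 in the AspClo mice, against 4.21 to 4.70 in the Veh_low mice, with a change of 0.12 (SE 0.12, adjusted p = 0.74). Both lay near the median of each array over all probe sets (4.59 to 4.62), a level at which a real difference can be hidden by background signal. None of 23 platelet genes passed (median change 0.06), nor any of 25 prostanoid genes (0.03) or 30 genes of clopidogrel and aspirin metabolism (-0.0049). Over all genes only 1.31% passed, so few calls would be found in lists of these sizes at that share. An unadjusted p under 0.05 was reached by 3 platelet, 3 prostanoid and 8 drug metabolism genes, against 13.3% of all genes. Ces1d, a carboxylesterase gene, had the smallest p of the last list. It averaged 11.68 ± 0.12 (SD, n = 6) in the AspClo mice and 12.15 ± 0.11 (n = 5) in the Veh_low mice, a change of -0.47 (SE 0.13, adjusted p = 0.0731). Among 28 coagulation and fibrinolysis genes none passed, 22 had a change above 0 and 9 had an unadjusted p under 0.05. Over all genes, 8449 of 17097 had a change above 0. F10, the gene of clotting factor X, had a change of 0.26 (adjusted p = 0.0507).

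Several immune gene lists with no called member had medians of opposite sign in the 2 kinds of drug-treated mice. The median change of 27 macrophage and monocyte genes was 0.0062 with all 6, 0.33 in the 4 high-Xist mice and -0.61 in the 2 low-Xist mice, where 26 of 27 were below 0. Of all 17097 genes, 7992 were above 0 in the 2. Cd68, a macrophage lysosomal gene named after its values were seen, had changes of 0.28 (adjusted p = 0.854) with all 6, 0.67 in the 4 and -0.49 in the 2. The summed intensity of the list was 4293 to 12846 in AspClo mice and 5893 to 12671 in Veh_low mice, so the ranges overlapped. The median of 29 type I interferon genes was 0.14, with 0.39 in the 4 and -0.23 in the 2, and that of 29 antigen presentation genes was 0.16, with 0.32 and -0.10. Without Veh_low_794 and Veh_low_1819 the medians were -0.03 for interferon, 0.04 for antigen presentation, -0.22 for macrophage and -0.26 for clock genes, so they too depended on these 2 vehicle mice. None of 31 T and NK cell genes, 42 fibrosis and matrix genes, 40 chemokine and cytokine genes or 41 cell cycle genes passed, with medians of -0.02, -0.0087, 0.02 and -0.02. Over all genes 1.31% passed.

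**Figure D5:**
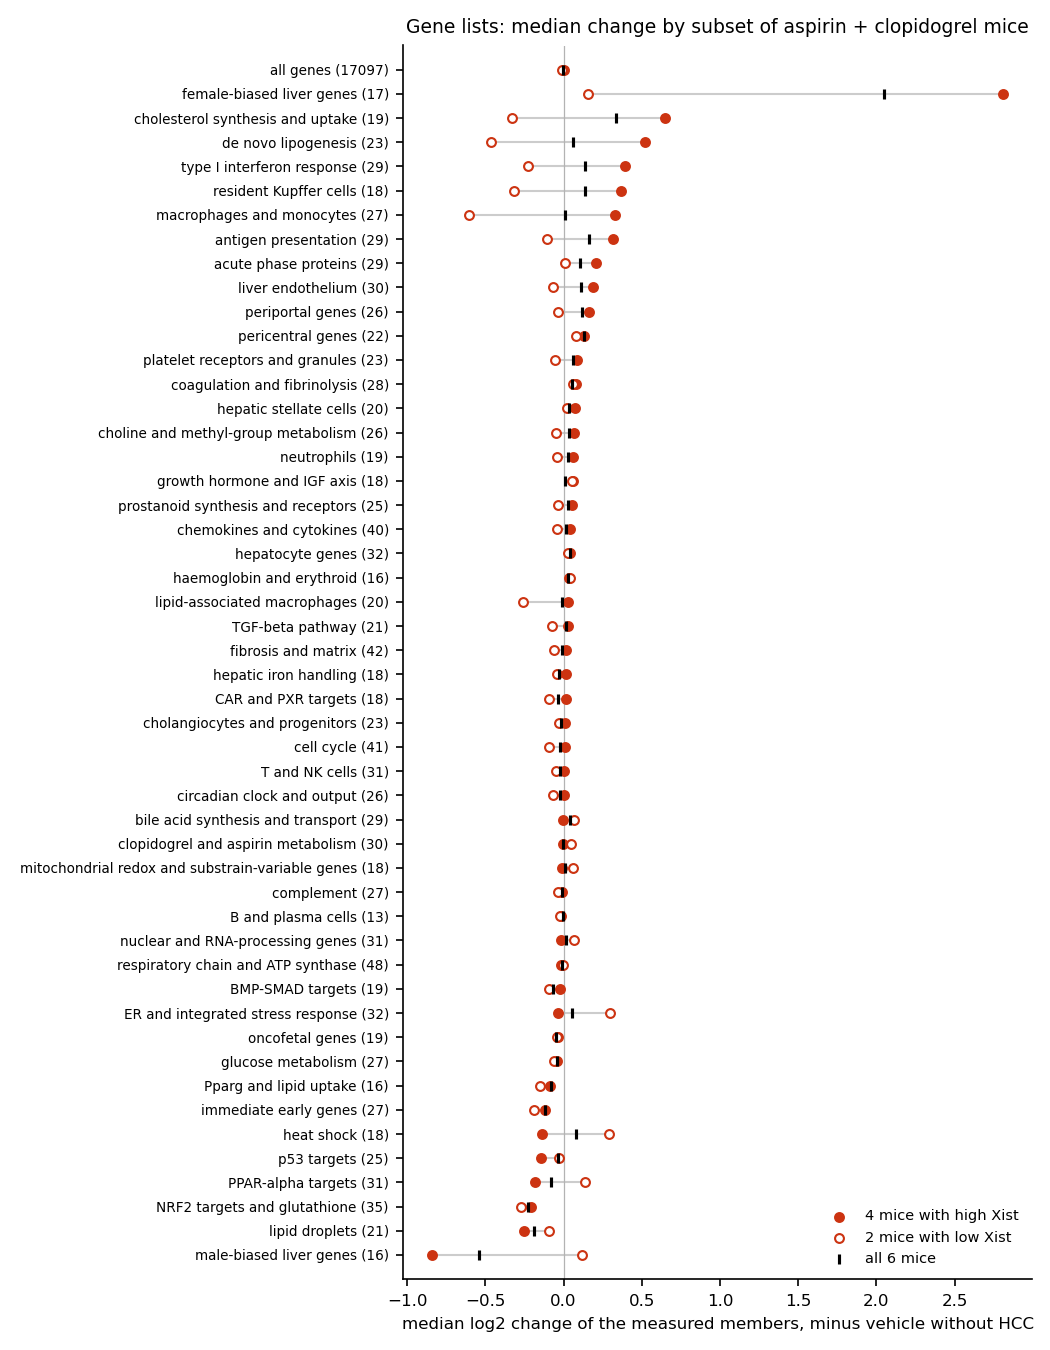
Median log2 change of the measured members of each gene list (number in brackets) relative to the Veh_low mice, for all 6 AspClo mice (bar), the 4 with high Xist (filled) and the 2 with low Xist (open). The female-biased and male-biased lists, macrophages, lipogenesis and cholesterol genes have the widest gaps between filled and open points, while the NRF2 list lies below 0 for both.

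Single members passed in several lists of other cells and functions, while 1.31% of all genes passed. Of 27 complement genes, Mbl2, a mannose-binding lectin gene, rose by 0.36 (adjusted p = 0.0348), while C4bp, a complement regulator gene, fell by 0.23 (adjusted p = 0.0368), with changes of 0.28 and -0.07 in the 2. C6, a gene of the membrane attack complex, fell by 1.80 (SE 0.39, adjusted p = 0.0184), with a change of -0.74 in the 2. C6 was also the 1 called member of the Kupffer cell list, whose defining marker Clec4f was at 8.78 to 10.29 in AspClo mice and 8.94 to 9.76 in Veh_low mice. Klb, the co-receptor gene for FGF15 and FGF21, rose by 0.77 (SE 0.20, adjusted p = 0.0471), with changes of 0.77 in the 4 and 0.76 in the 2 and no overlap between groups. The other of its 2 probe sets changed by only 0.07, and the call was lost in 9 of the 11 fits that left out 1 mouse. Ramp2, an accessory gene of the adrenomedullin receptor in endothelium, was at 12.17 to 12.28 in AspClo mice and 11.53 to 12.07 in Veh_low mice, and rose by 0.44 (SE 0.09, adjusted p = 0.00875), with a change of 0.46 in the 2. Malat1, a nuclear RNA, rose by 0.75 (adjusted p = 0.0488), with a change of 0.67 in the 2, and was lost in 8 of them. Of 27 immediate early genes none passed, but 22 had a change below 0, while 8449 of all 17097 genes had a change above 0. The summed intensity of the immediate early genes was 3114 to 3984 in AspClo mice and 4153 to 5681 in Veh_low mice, without overlap. The remaining genes of the largest changes were Abcd2, a peroxisomal fatty acid transporter gene, with a rise of 1.77, Lratd2 with 1.69, Dct, a gene of melanin synthesis, with 2.02 and Trim24, a chromatin reader gene, with 1.56, and Olig1, a transcription factor gene, with a change of -1.79. In the 2 low-Xist mice the changes were 0.89 for Abcd2, 0.44 for Lratd2, 0.62 for Trim24 and -0.91 for Olig1.

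Markers of liver were high in all 11 mice. Alb was at 13.53 to 13.68 in AspClo and 13.53 to 13.61 in Veh_low mice, and none of 32 hepatocyte genes passed, with summed intensities of 132463 to 135978 in AspClo mice and 126072 to 136340 in Veh_low mice. Cd3e, Col1a1 and Krt19, which mark T cells, matrix-producing cells and bile duct cells, lay between 4.17 and 5.11 in all 11 mice, near the array medians. No member of the adipose, exocrine pancreas, gall bladder or gut, and skeletal muscle lists passed. Array medians lay between 24.1 and 24.6 in linear intensity.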

How the data were processed

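The deposited table holds 1 intensity per probe set and array on a linear scale, which the authors made by RMA with quantile normalization in ExpressionFileCreator, per the series design text. The sources used here do not give its version. Values were taken to log2. Of 45141 probe sets, 104 controls, 551 with several symbols and 15588 with none were left out. Symbols of 28689 of the other 28898 matched RefSeq (GRCm38.p6), which also gave the promoter windows. This gave 17097 genes, of which 7180 had several probe sets and were represented by the brightest on average across all 30 arrays. No probe set with a single symbol was used for Ptgs1, the other cyclooxygenase gene, which is not analysed here.

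Groups came from the array titles. The series design text counts 4 vehicle mice and the labels 9, and the labels were followed. limma 3.58.1 in R 4.3.3 fitted 5 group means to all 30 arrays (25 residual and 2.37 prior degrees of freedom), and p-values of AspClo minus Veh_low were adjusted by Benjamini-Hochberg over all genes. "Rose", "fell" and "passed" mean an adjusted p under 0.05. Every p-value measures the spread between mice, and precision is limited by how many arrays there are. The fit was tested on simulated data.

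The mice compared and the 53 gene lists were chosen with earlier results of these data known. Named genes are the 12 largest rises and 12 largest falls that passed with a brighter mean at or above the median gene, up to 3 called members of each list (the 2 with the smallest p where none passed), drug targets, defining markers and genes named in earlier work on the series. Exceptions are stated. A change in 1 kind of AspClo mice comes from the fit without the others. The alternatives left out arrays or changed the arrays fitted, the intensity filter, the probe set rule, a pseudocount of 32, median centring, the variance model and array weights.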

Additional observations from a re-analysis of the deposited data

Results flagged for a closer look

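In 123 named genes, both groups were searched for a mouse far from the others by Dixon's criterion. Such a mouse was found in 14 of 246 groups, where chance gives about 1 in 20. Genes picked after their values were seen, among them Arntl, were not searched, except Kdm5d and Uty. Most of these values bear on genes that did not pass.

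Among drug-treated mice, AspClo_63 had Vldlr at 5.61 (next 5.18), Pnpla3, a lipid droplet lipase gene, at 8.19 (next 5.22) and Cd79a, a B cell receptor gene, at 4.56 (next 4.38). AspClo_64 had the platelet chemokine gene Pf4 at 6.87 (next 5.40) and the thromboxane synthase gene Tbxas1 at 5.55 (next 4.96), and AspClo_62 had the clotting factor gene F10 at 11.47 (next 11.69).

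Among vehicle mice, Veh_low_1819 had Cidea at 6.76 (next 9.46) and Aox1 at 11.01 (next 10.68). Veh_low_794 had Nat8 at 9.60 (next 9.20) and the resistin gene Retn at 6.86 (next 4.84). Veh_low_1810 had the glycogen regulator gene Ppp1r3c at 10.76 (next 11.39) and the calponin gene Cnn1 at 4.30 (next 4.46). Veh_low_1825 had the proton pump gene Atp6v0d2 at 5.14 (next 4.81), and Veh_low_2091 had Alb at 13.61 (next 13.55).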

How the results depend on the processing

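The count of 224 genes depended on which mice entered. Leaving out 1 mouse at a time gave 75 to 492 genes, and 62 genes passed in each of those 11 fits. Of the 50 named genes that had passed, 24 to 49 still did in each fit, and 21 did in all 11. The 18 lost in 6 or more were Agxt, C4bp, Chpt1, Cux2, Cyp4a12a, Dct, Eif2s3y, Ephx1, Id1, Klb, Malat1, Mbl2, Nnt, Pparg, Prom1, Stard4, Uty and Vldlr. It was 75 without AspClo_58, 79 without AspClo_61, 92 without AspClo_64, 111 without AspClo_63, 115 without Veh_low_2091, 118 without Veh_low_1825, 121 without Veh_low_1810 and 132 without Veh_low_794, against 351 without AspClo_60 and 492 without AspClo_62. With only the 11 arrays in the fit 44 passed, which kept 6 of the 50 and lost 44, and with array weights 461. In 3 alternatives chosen after seeing the data, 6 genes passed without the 4 high-Xist mice, 823 without the 2 low-Xist mice, and 4 with only the 2 low-Xist mice and 5 vehicle mice in the fit. In the first and last of these, 5 named genes changed sign, with values equal in both: Xist to -0.0299, Cyp3a16 to -0.0776, Cyp3a44 to -0.0925, Kdm5d to 0.0175 and Eif2s3y to 0.314. None of the 50 passed in either. The other alternatives gave 168 to 308 genes and kept 30 to 49 of the 50. With the intensity filter 47 of the 50 were tested and all 47 passed. No paired analysis was possible because the 2 groups share no replicate numbers.

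Drug and the high-Xist state cannot be told apart in 4 of 6 mice, and only 2 mice remain without them. The vehicle mice were set apart by outcome and the drug-treated mice were not. Collection time, strain and batch are not given by the labels, and their part was not tested. Genes near the array median lie close to background.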

Other observations

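Stress genes had mostly positive changes in the 2 low-Xist drug-treated mice. Of 32 measured genes of the ER and integrated stress response, 28 had a change above 0 in AspClo_60 and AspClo_62, with a median of 0.30, while the median was -0.03 in the 4 high-Xist mice and -0.0084 over all genes in the 2. Ddit3 was the 1 member that rose in the 2. Of 18 heat shock genes, 16 had a change above 0 in the 2, with a median of 0.29, against -0.14 in the 4. Of all 17097 genes, 7992 had a change above 0 in the 2. The difference between the 2 kinds of drug-treated mice was not tested.

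Medians of PPAR-alpha targets also differed in sign between the 2 kinds of mice. Of 31 measured targets, 26 had a change above 0 in the 2 low-Xist mice (median 0.13), against 7992 of all 17097 genes. The median was -0.18 in the 4 high-Xist mice. The mean log2 intensity of the list was 10.25 and 10.37 in Veh_low_794 and Veh_low_1819 and 10.58 to 10.74 in the other Veh_low mice. AspClo_60 and AspClo_62 were at 10.54 and 10.75, near the latter, and the 4 were at 10.07 to 10.18. The sign in the 2 thus depended on Veh_low_794 and Veh_low_1819. None passed in the 2, where only 0.0351% of all genes did.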
